A study of Mus musculus with 9 samples.

Results

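The genes described here belong to cholesterol synthesis and sterol handling and were taken by symbol from a list of enzymes, regulators and transporters. All 29 on the list were present among the 17482 genes measured, and all 29 passed the filter on low values. Bulk RNA of mouse tumours (tissue name MB in the labels) was sequenced at P8/P9, postnatal day 8 or 9, in 9 libraries that form 3 groups of 3. SG tumours had the genotype fSMO-M2;hGFAPcre: an SMO-M2 allele, a constitutively active form of the Hedgehog pathway component Smoothened, together with the hGFAPcre driver, a Cre recombinase under a human GFAP promoter that is active in neural progenitors. The YSGr (rescued) and YSGnr (non-rescued) tumours had the genotype fYap1;fSMO-M2;hGFAPcre, which adds a conditional allele of Yap1, the transcriptional coactivator of the Hippo pathway, to the SMO-M2 allele and the driver that all 3 groups share. The labels do not define rescue and do not say whether the libraries came from separate animals, so p-values measure the spread between these libraries, which may be technical.

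Cholesterol is built from acetyl-CoA through mevalonate and farnesyl diphosphate to squalene, which is closed to lanosterol and then trimmed to cholesterol. The transcription factor SREBP-2 drives most of these enzymes and SREBP-1 mainly fatty acid synthesis. Both are carried by SCAP and released from the endoplasmic reticulum when sterol is low, while INSIG proteins hold them back. When sterol is plentiful, oxysterols activate the LXR receptors, which raise export through ABCA1 and ABCG1, and SOAT1 stores cholesterol as ester. In the developing cerebellum, cholesterol also modifies Hedgehog ligand and binds Smoothened, and dividing granule neuron progenitors and myelinating oligodendrocytes both need much of it.

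The depth, back-calculated from the values, was 17.3 to 29.2 M reads for 8 libraries. The shallowest, YSGnr replicate 1, had 9.66 M reads, and 63.4% of them came from Yam1 and Lars2, a pair of genes picked out for these values. Yap1, the targeted gene, stood at 5.04, 5.11 and 5.03 log2 CPM (reads scaled to library size) in SG, at 4.44, 3.31 and 2.79 in YSGr and at 2.79, 2.57 and 1.99 in YSGnr. Each Yap1-floxed library was therefore below every SG library. YSGr replicate 3 stood apart from replicates 1 and 2 of its group. Gli1, a target of Hedgehog signalling, had 5.12 and 5.01 log2 CPM in replicates 1 and 2. It had 7.57 in replicate 3, close to the 7.48 to 7.75 of SG. Between libraries, YSGr replicate 3 correlated most with YSGnr replicates 2 and 3 (r = 0.9655 and 0.9598). Its correlation was lower with SG (0.9477 to 0.9504) and YSGnr replicate 1 (0.9419). It was lowest with YSGr replicates 1 and 2 (0.9357 and 0.9288). The YSGr means and tests include this library unless it is said to be left out. The granule neuron progenitor genes Barhl1 and Atoh1 were present in all 3 groups, between 7.38 and 9.27 and between 3.34 and 6.89 log2 CPM. Both were lowest in YSGr replicates 1 and 2. There Barhl1 was at 7.75 and 7.38, against 8.80 to 8.84 in SG. Atoh1 was at 3.89 and 3.34 in those libraries, against 5.89 to 6.76 in SG. Xist was above 9 log2 CPM while the Y-linked Ddx3y was at -3.52, the floor of these values, in all YSGr libraries and in YSGnr replicate 1, and the reverse held in SG and in YSGnr replicates 2 and 3. The YSGnr libraries therefore did not all come from the same animal, while for SG and YSGr these transcripts do not settle that. Sex-linked transcripts and the step from SG to YSGr cannot be told apart.

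In the rescued YSGr tumours, 5 genes for making cholesterol were higher than in SG and the gene for storing it as ester was lower. Mvd, Fdft1, Sqle, Tm7sf2 and Dhcr7 rose and Soat1 fell, which makes 5 of 29 genes called higher (17.2%) and 1 called lower (3.45%), where a gene was called at a limma adjusted p below 0.05 over 15251 tested genes. Over all tested genes, 6.58% were called higher and 3.97% lower. The fold change was positive for 23 of the 29 genes, with a median of 0.34 log2 units, against a median of -0.02 over all tested genes. All 3 YSGr libraries lay above all 3 SG libraries for 16 genes (55.2%), against 19.5% of all tested genes, and below for 3 genes (10.3%), Hsd17b7, Abca1 and Soat1, against 17.3%. In bulk tissue, fewer cells of a type and less RNA per cell cannot be told apart.

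**Figure D1:**
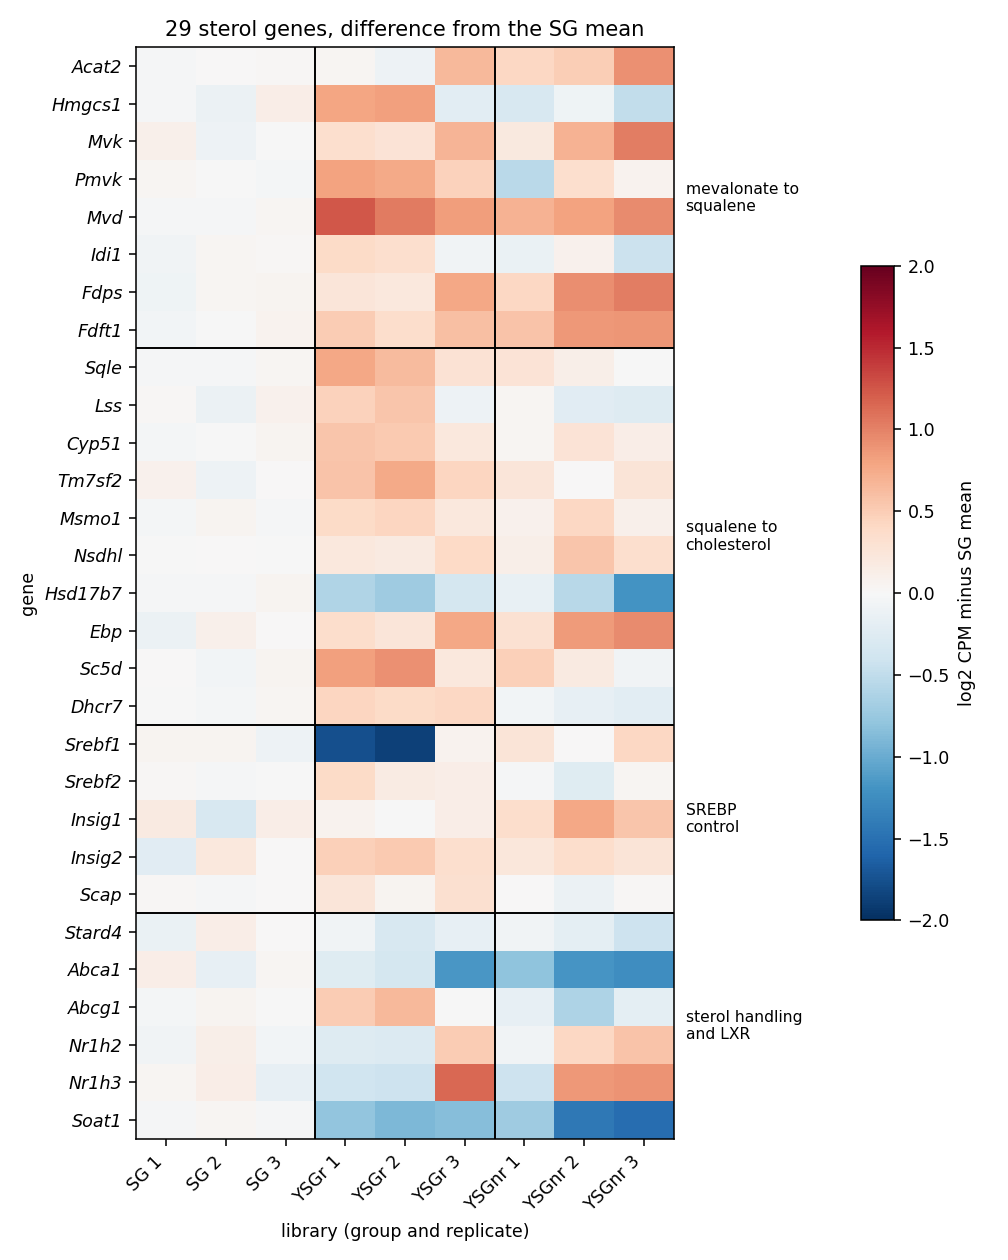
Each cell is the log2 CPM of 1 gene (row) in 1 library (column) minus that gene's mean over the 3 SG libraries, with red above and blue below and genes ordered by step of the pathway. YSGr replicates 1 and 2 are red over most synthesis genes and deep blue at Srebf1, YSGr replicate 3 is near 0 at Srebf1, and the Soat1 row is blue in all 6 Yap1-floxed libraries.

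The 8 genes from acetyl-CoA to squalene all had a positive fold change in YSGr against SG, with a median of 0.45 log2 units, and 2 of them, Mvd and Fdft1, were called. Mvd (ENSMUSG00000006517.5, GRCm38 chromosome 8, 122433601 to 122443422, minus strand) encodes the decarboxylase that makes isopentenyl diphosphate from mevalonate diphosphate. It stood at 4.96, 4.95 and 5.02 log2 CPM in SG, at 6.22, 6.02 and 5.81 in YSGr and at 5.67, 5.77 and 5.92 in YSGnr. All 6 Yap1-floxed libraries were above SG with no overlap. Mvd rose by 1.04 log2 units in YSGr (SE 0.14, limma adjusted p = 0.00387), a 2.06-fold difference, and it kept its call whichever of the 9 libraries was left out, with an adjusted p of at most 0.0313.

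Fdft1 (ENSMUSG00000021273.10, chromosome 14, 63145150 to 63179578, minus strand) encodes squalene synthase, which commits farnesyl diphosphate to sterols. Its values were 6.04, 6.10 and 6.17 log2 CPM in SG, 6.61, 6.46 and 6.70 in YSGr and 6.68, 6.97 and 6.99 in YSGnr, again without overlap between SG and either other group. Fdft1 rose by 0.49 log2 units in YSGr (SE 0.13, limma adjusted p = 0.0469). Its exons share 774 bp with Ctsb on the opposite strand, 18.3% of their length, and no source used here gives the strand setting of the counting. Ctsb, which encodes the lysosomal protease cathepsin B, was at 8.26, 8.15 and 8.37 log2 CPM in YSGr and 8.20, 8.13 and 8.12 in SG, and reads of the shared stretch cannot be told apart.

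The other 6 genes of these steps were not called in YSGr. Hmgcs1, which encodes the synthase that makes HMG-CoA, was at 7.93, 7.83 and 8.08 log2 CPM in SG and at 8.73, 8.77 and 7.73 in YSGr, so replicates 1 and 2 lay above SG and replicate 3 below. Pmvk, the gene of phosphomevalonate kinase, was at 4.50, 4.46 and 4.43 in SG and at 5.27, 5.23 and 4.93 in YSGr, and its fold change of 0.68 log2 units (SE 0.22) did not reach the threshold. Idi1, the gene of the isomerase of isopentenyl diphosphate, was at 6.38, 6.33 and 5.92 in YSGr, against 5.92 to 6.03 in SG. In all 3 of these genes YSGr replicate 3 was the lowest of its group. In Acat2, Mvk and Fdps, which encode a thiolase, mevalonate kinase and farnesyl diphosphate synthase, replicate 3 was instead the highest of its group, at 7.36, 5.41 and 6.75 log2 CPM. The YSGr group therefore held a pair of libraries and a single library that differed over which early enzymes were high.

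From squalene to cholesterol, 3 of 10 genes rose in YSGr, none was called lower, and 9 of 10 fold changes were positive, with a median of 0.42 log2 units. Sqle, squalene epoxidase, which adds oxygen to squalene and is a control point of the pathway, was at 6.53, 6.53 and 6.59 log2 CPM in SG, 7.32, 7.18 and 6.84 in YSGr and 6.82, 6.66 and 6.54 in YSGnr. All YSGr libraries were above SG, and Sqle rose by 0.57 log2 units (SE 0.15, limma adjusted p = 0.0429). Tm7sf2, a sterol reductase acting after lanosterol, was at 3.92, 3.74 and 3.85 in SG, 4.41, 4.59 and 4.28 in YSGr and 4.08, 3.85 and 4.09 in YSGnr. Tm7sf2 was also higher in every YSGr library than in every SG library and rose by 0.59 log2 units (SE 0.15, limma adjusted p = 0.0351). On the same strand its locus overlaps that of Vps51, so the assignment of shared reads is uncertain.

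Dhcr7 (ENSMUSG00000058454.15, chromosome 7, 143823145 to 143848410, plus strand) encodes the reductase that makes cholesterol from dehydrocholesterol. It was at 5.65, 5.62 and 5.69 log2 CPM in SG, at 6.09, 6.04 and 6.06 in YSGr and at 5.60, 5.49 and 5.45 in YSGnr. The 3 YSGr libraries were close to each other, with an SD of 0.03, and replicate 3 lay with the other two. Dhcr7 rose by 0.41 log2 units in YSGr (SE 0.11, limma adjusted p = 0.0437). With a trend on transcript length and GC content removed from each library, its fold change was 0.31 and it was not called (adjusted p = 0.108).

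The remaining 7 genes of these steps were not called against SG. Lss, lanosterol synthase, was between 5.56 and 5.77 log2 CPM in SG and at 6.13, 6.24 and 5.57 in YSGr. Sc5d, a sterol desaturase, was at 5.50, 5.61 and 4.90 in YSGr against 4.63 to 4.74 in SG. Both were highest in YSGr replicates 1 and 2. The fold changes of Cyp51, Msmo1, Nsdhl and Ebp, which encode lanosterol demethylase, a methylsterol oxidase, a sterol dehydrogenase and a sterol isomerase, were 0.43, 0.34, 0.26 and 0.46 log2 units, each with no overlap between the groups. Ebp and Nsdhl lie on the X chromosome, and in both YSGr replicate 3 was the highest of its group. Hsd17b7, a ketosteroid reductase of the same steps, went the other way, with 5.05, 5.05 and 5.13 in SG, 4.48, 4.37 and 4.73 in YSGr and 4.93, 4.53 and 3.88 in YSGnr, and its fold change of -0.55 (SE 0.24) was not called.

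**Figure D2:**
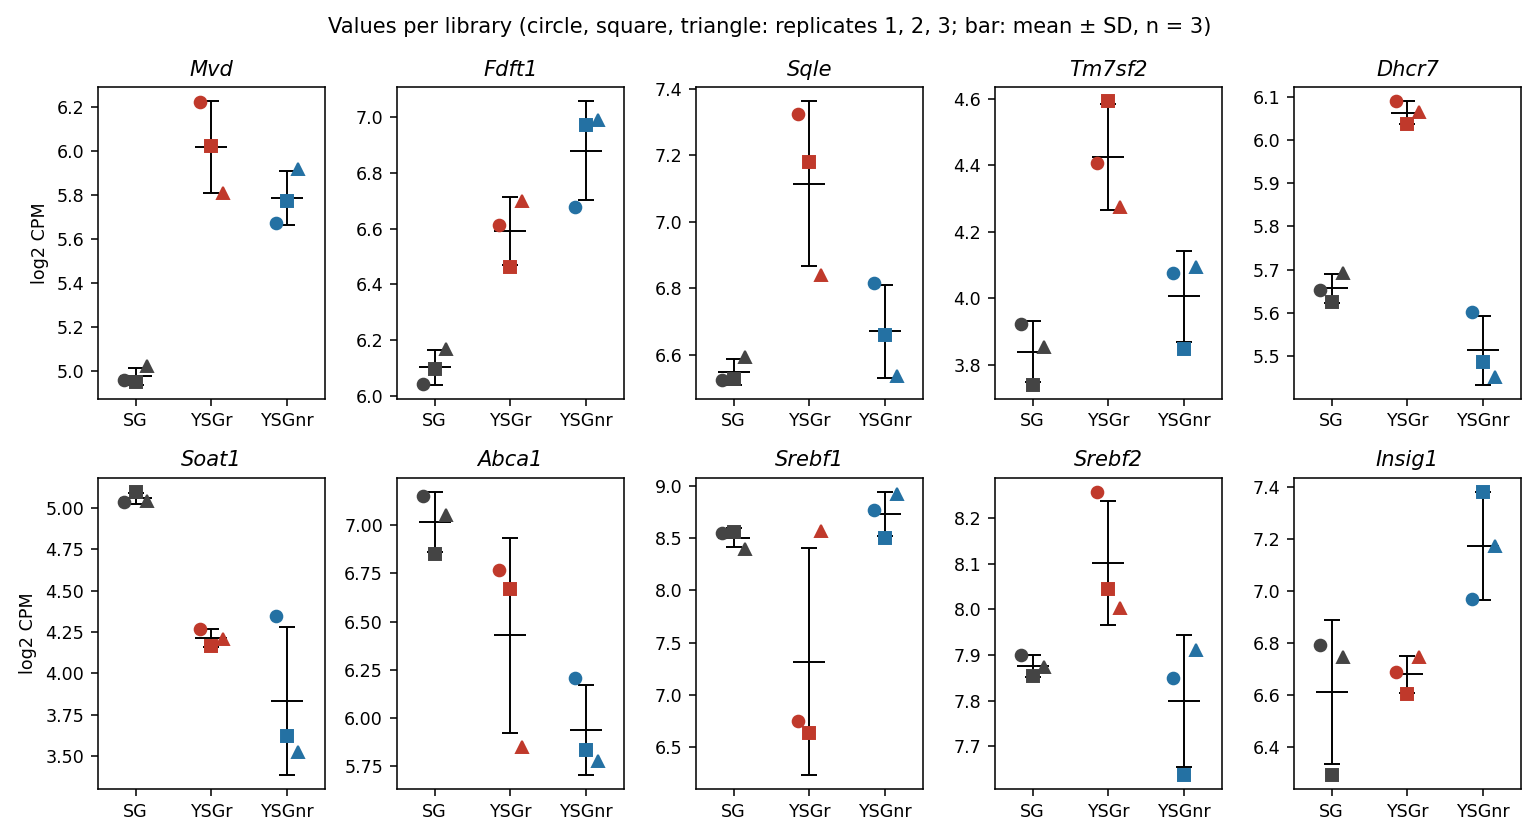
Points are log2 CPM of single libraries for 10 genes, 3 libraries a group, and bars are the mean ± SD (n = 3), with a separate y axis for each gene that does not start at 0. Mvd and Fdft1 are above SG in both Yap1-floxed groups, Sqle, Tm7sf2 and Dhcr7 in YSGr, and Soat1 is below SG in both, while Srebf1 in YSGr is split, with 6.75 and 6.64 for replicates 1 and 2 but 8.57 for replicate 3.

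Promoter sequence was examined because the synthesis genes are known to share regulators. RefSeq promoters on GRCm38.p6, 250 bases before to 50 after a listed start, were found for 24 of the 29 genes. Fdft1, Sqle, Fdps, Stard4 and Abcg1 were not matched. Stretches of 150 bases before a start are shown for the genes that were called and matched from these steps. Hmgcs1 is shown as the only one of the 24 whose window matched the letters searched for the sterol response element. Soat1 is shown as a gene called lower, and Srebf1 for its low values in YSGr replicates 1 and 2. Capitals mark CCAAT, the box bound by NF-Y (ATTGG on the other strand), and in Hmgcs1 also the sterol response element. The stretches lie at chr13:119690201-119690350 on the plus strand for Hmgcs1, chr8:122443423-122443572 on the minus strand for Mvd, chr7:143830064-143830213 on the plus strand for Dhcr7, chr19:6067851-6068000 on the minus strand for Tm7sf2, chr1:156474329-156474478 on the minus strand for Soat1 and chr11:60210472-60210621 on the minus strand for Srebf1, each written 5′ to 3′ on its gene's strand. Dhcr7 and Srebf1 have several listed starts, and one is shown for each.
Hmgcs1: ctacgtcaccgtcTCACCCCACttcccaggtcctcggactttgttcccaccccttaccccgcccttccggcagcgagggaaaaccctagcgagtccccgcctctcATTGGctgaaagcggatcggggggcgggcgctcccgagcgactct
Mvd: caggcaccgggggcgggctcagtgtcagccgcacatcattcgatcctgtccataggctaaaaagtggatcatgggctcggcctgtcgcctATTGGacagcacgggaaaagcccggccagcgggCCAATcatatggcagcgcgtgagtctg
Dhcr7: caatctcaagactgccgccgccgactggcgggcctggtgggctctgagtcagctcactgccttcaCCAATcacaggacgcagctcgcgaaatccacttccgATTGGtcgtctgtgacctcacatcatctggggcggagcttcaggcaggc
Tm7sf2: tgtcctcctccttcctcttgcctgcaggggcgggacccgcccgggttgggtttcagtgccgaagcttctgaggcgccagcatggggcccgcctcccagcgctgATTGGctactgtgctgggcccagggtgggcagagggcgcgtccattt
Soat1: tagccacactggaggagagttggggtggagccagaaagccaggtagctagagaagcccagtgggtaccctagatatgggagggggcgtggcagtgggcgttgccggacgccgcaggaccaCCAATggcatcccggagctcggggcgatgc
Srebf1: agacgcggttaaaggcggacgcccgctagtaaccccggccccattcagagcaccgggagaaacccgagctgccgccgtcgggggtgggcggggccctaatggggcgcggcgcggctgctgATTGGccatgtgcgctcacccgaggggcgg

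Over the whole window and on both strands, CCAAT was present in 19 of the 24 genes (79.2%), against 42.7% of 10899 tested genes with a promoter. Counted per promoter, since some genes have several, it was in 20 of their 33 (60.6%), against 37.4% of all 32851 promoters. Mvd and Dhcr7, both called in YSGr, hold the box more than once in the stretches shown, and Soat1, which fell, holds it too. The sterol response element, searched as TCACNCCAC, was found in Hmgcs1 alone (4.17% of the 24 genes, against 1.44% of tested genes), which is 3.03% of the 33 promoters, against 1.24% of all. The LXR element, searched as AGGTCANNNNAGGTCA, was in none of the 33 promoters and in 0.0152% of all. A match to these letters is a description of the window and not of binding.

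None of the 5 genes of SREBP control was called by limma in any of the comparisons, and at an unadjusted p below 0.05 there were 2 in YSGr against SG, 1 in YSGnr against SG and 2 in YSGr against YSGnr. Srebf1 (ENSMUSG00000020538.15, chromosome 11, 60199089 to 60222581, minus strand), the gene of SREBP-1, was at 8.55, 8.55 and 8.40 log2 CPM in SG, 6.75, 6.64 and 8.57 in YSGr and 8.76, 8.50 and 8.92 in YSGnr. YSGr replicates 1 and 2 lay below every other library and replicate 3 among the SG and YSGnr libraries. The fold change of -1.18 log2 units in YSGr (SE 0.43, limma adjusted p = 0.119) was not called. Without YSGr replicate 3, Srebf1 was lower by -1.81 log2 units and was called (adjusted p = 0.000182), so this result turns on 1 library. Its exons share 109 bp, 1.94% of their length, with Rai1 on the opposite strand, which was at 7.08, 7.01 and 7.89 log2 CPM in YSGr and 7.98 to 8.08 in SG. Other members also share exon length with a gene on the opposite strand: Scap 13.2%, Hmgcs1 12.1%, Idi1 9.2%, Cyp51 3.76% and Lss 3.53%. On the same strand Fdps, Nr1h3 and Srebf1 overlap another gene. The assignment of shared reads is uncertain for these genes too.

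Srebf2, the gene of SREBP-2, was at 7.90, 7.85 and 7.87 log2 CPM in SG, 8.26, 8.05 and 8.004 in YSGr and 7.85, 7.64 and 7.91 in YSGnr. All 3 YSGr libraries were above SG by a small margin, 0.23 log2 units (SE 0.13, adjusted p = 0.25). Per kb of the longest transcript, the difference of Srebf1 from Srebf2 was 0.89, 0.94 and 0.77 log2 units in SG, -1.27, -1.17 and 0.81 in YSGr and 1.16, 1.11 and 1.25 in YSGnr. Srebf1 was thus the higher of the pair in 7 libraries and the lower in YSGr replicates 1 and 2. On that scale Srebf1 was the most abundant of the 29 genes in SG, at 6.40 log2 CPM per kb, followed by Hmgcs1 at 6.16, and Nr1h3 was lowest at 0.33.

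Insig1 and Insig2 encode the proteins that retain SCAP. Insig1 was at 6.79, 6.29 and 6.75 log2 CPM in SG, 6.69, 6.61 and 6.74 in YSGr and 6.97, 7.38 and 7.17 in YSGnr, so only the YSGnr libraries lay above SG. Insig2 was at 3.85, 4.30 and 4.09 in SG, 4.56, 4.61 and 4.42 in YSGr and 4.30, 4.42 and 4.34 in YSGnr. All YSGr libraries lay above SG, while YSGnr was almost level with it at the nearest values, 4.303 against 4.299. The fold changes were 0.45 log2 units in YSGr (SE 0.15, limma adjusted p = 0.0898) and 0.27 in YSGnr (SE 0.15, limma adjusted p = 0.266). Scap varied little, with 6.17, 6.12 and 6.15 in SG, 6.38, 6.20 and 6.47 in YSGr and 6.15, 6.03 and 6.17 in YSGnr.

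Of the 6 genes of sterol handling, Soat1 fell in YSGr and none was called higher. Soat1 (ENSMUSG00000026600.12, chromosome 1, 156424525 to 156474331, minus strand) encodes the enzyme that esterifies cholesterol for storage. It was at 5.04, 5.10 and 5.04 log2 CPM in SG, 4.27, 4.17 and 4.21 in YSGr and 4.34, 3.62 and 3.53 in YSGnr. Every Yap1-floxed library was below every SG library, and replicate 3 of YSGr did not stand apart. Soat1 fell by 0.84 log2 units in YSGr (SE 0.20, limma adjusted p = 0.0326), a 1.80-fold difference.

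Abca1, the exporter that loads cholesterol onto lipoproteins, was at 7.15, 6.85 and 7.05 log2 CPM in SG, 6.77, 6.67 and 5.85 in YSGr and 6.21, 5.83 and 5.77 in YSGnr. Abcg1, a partner in export, was at 4.47, 4.57 and 4.51 in SG, 5.02, 5.16 and 4.51 in YSGr and 4.36, 3.90 and 4.31 in YSGnr. In YSGr, then, Abca1 lay below SG in all 3 libraries and Abcg1 above it in 2, and neither was called. The LXR genes were not called either: Nr1h2 (LXR beta) was at 5.51, 5.70 and 5.52 in SG, 5.31, 5.31 and 6.09 in YSGr and 5.50, 5.99 and 6.15 in YSGnr. Nr1h3 (LXR alpha), the least abundant of the 29, was at 1.36, 1.45 and 1.15 in SG, 0.92, 0.91 and 2.47 in YSGr and 0.91, 2.19 and 2.23 in YSGnr. For both, YSGr replicate 3 lay with YSGnr replicates 2 and 3. Stard4, which carries sterol between membranes, was between 6.12 and 6.38 in SG, 5.93 and 6.19 in YSGr and 5.84 and 6.19 in YSGnr, with overlapping groups.

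Leaving out single libraries changed most of these calls in YSGr against SG. Without any one of the 3 SG libraries, or without YSGr replicate 1 or 2, Mvd alone stayed called. The adjusted p of Fdft1, Sqle, Tm7sf2, Dhcr7 and Soat1 then reached 0.181, 0.167, 0.151, 0.164 and 0.118, and over the 9 fits their fold changes stayed between 0.43 and 0.55, 0.46 and 0.70, 0.50 and 0.66, 0.39 and 0.43, and -0.87 and -0.82 log2 units. Fdft1, Sqle and Dhcr7 were also not called without YSGnr replicate 2 or 3. YSGr replicate 3 was picked out for its values in these same data. Without it, 14 of the 29 genes were called, 12 higher (41.4%) and 2 lower, against 14.4% and 13.5% of all tested genes. To Mvd, Fdft1, Sqle, Tm7sf2 and Dhcr7 this added Hmgcs1 (0.81 log2 units), Pmvk (0.78), Lss (0.51), Cyp51 (0.54), Sc5d (0.87), Insig2 (0.50) and Abcg1 (0.58), and Srebf1 joined Soat1 among the lower genes. With the replicate numbers as a block, Mvd and Soat1 stayed called. Fdft1 was not called with no filter on low values (adjusted p = 0.0513), nor Sqle with median scaling (adjusted p = 0.0571).

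In the non-rescued YSGnr tumours against SG, Mvd and Fdft1 rose again, and Soat1 and Abca1 fell. These are 2 of 29 genes higher (6.90%) and 2 lower (6.90%), against 1.19% and 2.17% of all tested genes. The comparison shares its SG libraries with the one above. Of the 29 fold changes, 17 were positive, with a median of 0.17 log2 units, against -0.01 over all tested genes. The 3 YSGnr libraries lay above SG for 10 genes (34.5%, against 16.9% of all tested genes) and below for 5 (17.2%, against 21.3%).

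Mvd rose by 0.81 log2 units in YSGnr (SE 0.14, limma adjusted p = 0.0225), a 1.75-fold difference. Fdft1 rose by 0.78 (SE 0.13, limma adjusted p = 0.0225), with the overlapping Ctsb at 8.04, 8.71 and 8.86 log2 CPM in YSGnr. Fdps, Ebp, Mvk and Acat2 were above SG in all 3 YSGnr libraries, with fold changes of 0.79, 0.70, 0.64 and 0.61 log2 units, and did not pass the threshold. From squalene to cholesterol limma called none of 10 genes, with 3 at an unadjusted p below 0.05. Hmgcs1 and Dhcr7 had fold changes of -0.30 and -0.14.

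Soat1 fell by 1.23 log2 units in YSGnr (SE 0.20, limma adjusted p = 0.0209), to a level 2.34-fold below SG. Abca1 (ENSMUSG00000015243.4, chromosome 4, 53030787 to 53159895, minus strand) fell by 1.08 (SE 0.24, limma adjusted p = 0.0471). Mvd, Fdft1 and Soat1 were not called without any one of the SG libraries or without YSGnr replicate 2 or 3, where their adjusted p reached 0.136, 0.141 and 0.122. Abca1 stayed called only without YSGnr replicate 1 or YSGr replicate 3, and reached 0.193 otherwise. It was also not called with no filter (adjusted p = 0.051) or with median scaling (adjusted p = 0.0615). Without YSGnr replicate 1, the shallow library, 10 of the 29 genes were called, against 21.8% of all tested genes, among them Fdps (0.97 log2 units), Ebp (0.90), Mvk (0.86) and Insig1 (0.66) as higher and Hsd17b7 (-0.88) as lower.

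**Figure D3:**
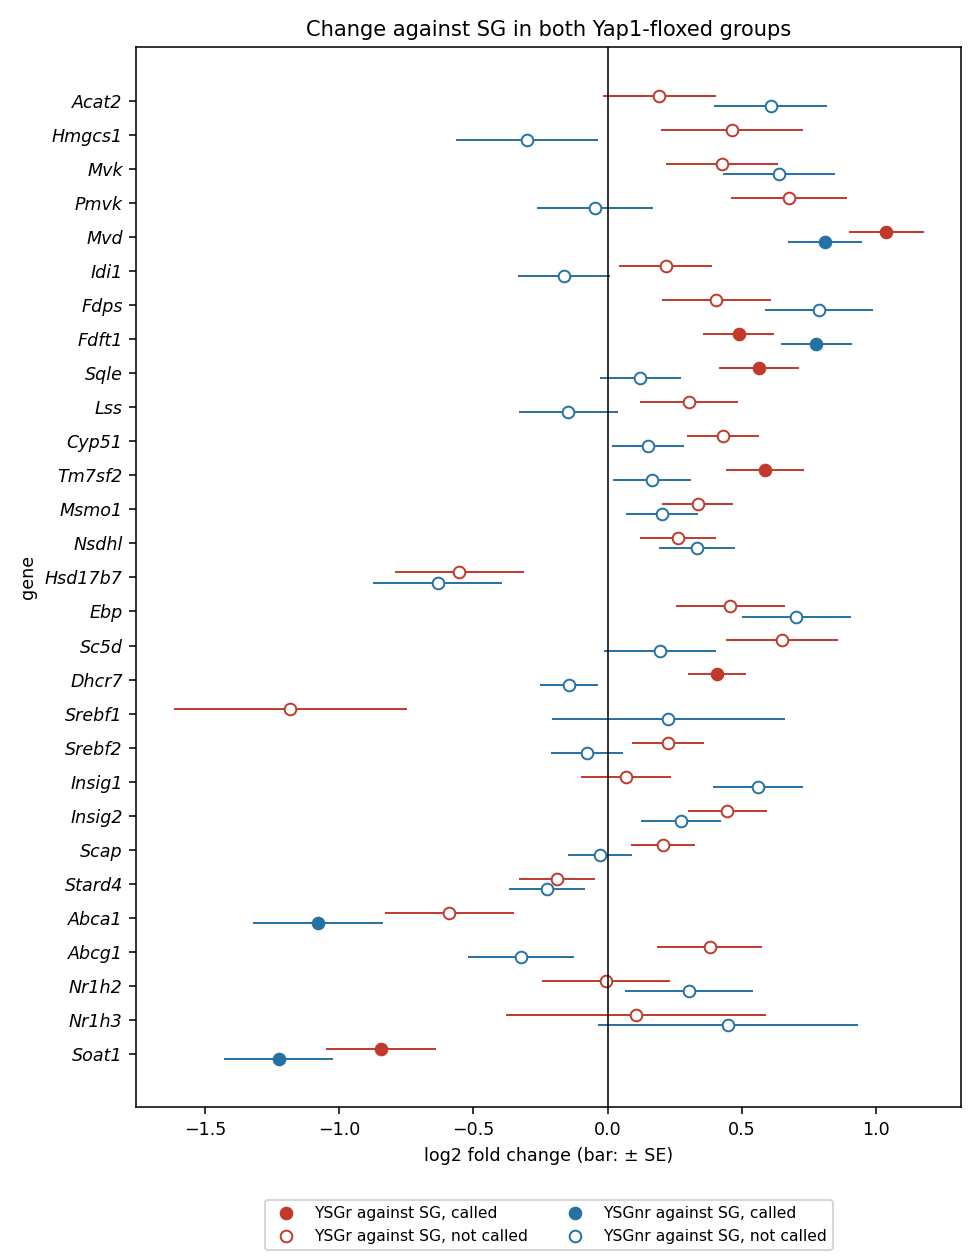
Points are limma log2 fold changes of the 29 genes against SG (x axis, bars ± SE), red for YSGr and blue for YSGnr, filled where called. Mvd and Fdft1 are filled to the right of 0 and Soat1 to the left in both colours, Sqle, Tm7sf2 and Dhcr7 are filled in red only and Abca1 in blue only, and the test of the difference between the groups called Dhcr7 alone.

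Set against each other, the rescued and non-rescued tumours differed by the test in 1 gene. Dhcr7 was higher in YSGr than in YSGnr by 0.55 log2 units (SE 0.11, limma adjusted p = 0.0347), which is 3.45% of the 29 genes, against 5.09% of all tested genes called higher. No gene of the 29 was called lower, against 0.879% of all tested genes, and 9 of the 29 had an unadjusted p below 0.05. The groups did not overlap for 7 genes with YSGr above (24.1%, against 15% of all tested genes) and for 1, Insig1, with YSGr below (3.45%, against 7.46%). Srebf1 had the largest fold change of the 29, -1.41 log2 units (SE 0.43, limma adjusted p = 0.074). Dhcr7 was called in 2 of the 9 fits that left out a library, those without YSGr replicate 3 or YSGnr replicate 1, and its adjusted p reached 0.174 in the others. On the 6 YSGr and YSGnr libraries alone it was not called (adjusted p = 0.161). Sqle and Tm7sf2, called against SG in YSGr and not in YSGnr, differed between the groups by 0.44 and 0.42 log2 units, short of the threshold (adjusted p = 0.0874 and 0.093).

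Of the 9 fits that left out a library, the one without YSGr replicate 3 called the most of the 29 genes between the Yap1-floxed groups. That library was picked out for its values in these same data, so its calls describe the fit and are not separate support. In that fit 16 of the 29 genes were called, 11 higher in YSGr (37.9%) and 5 lower (17.2%), against 22.2% and 20.6% of all tested genes. The share called lower was thus below that of all tested genes. Hmgcs1 (1.10 log2 units), Abcg1 (0.90), Pmvk (0.83), Abca1 (0.78), Sc5d (0.67), Lss (0.65), Sqle (0.58), Dhcr7 (0.55), Idi1 (0.53), Tm7sf2 (0.49) and Cyp51 (0.39) were higher. Srebf1 (-2.04), Acat2 (-0.64), Fdps (-0.57), Nr1h2 (-0.57) and Insig1 (-0.53) were lower. Among the early enzymes of that fit, Hmgcs1, Pmvk and Idi1 were higher and Acat2 and Fdps lower in the rescued pair of libraries.

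The differences from SG moved with transcript length, in some libraries more than in others. Across the 29 genes, Spearman's rho of the difference from the SG mean with the longest transcript was -0.80 in YSGr replicate 3, -0.79 in YSGnr replicate 2 and -0.72 in YSGnr replicate 3, and it was -0.09, -0.14 and -0.28 in YSGr replicates 1 and 2 and YSGnr replicate 1. Over all genes with a length the same values were -0.41, -0.52 and -0.50, and 0.15, 0.13 and -0.07. For the fold changes over all these genes, rho was -0.02 in YSGr against SG, -0.456 in YSGnr against SG and 0.365 in YSGr against YSGnr. The genes of a library share its depth and RNA, and these values are a description. Among the 15 genes with a transcript up to the median of 3083 bp, 12 had a positive fold change in YSGnr against SG, with a median of 0.33 log2 units, and among the 14 longer genes 5 did, with a median of -0.11. In YSGr against SG, 14 of the 15 shorter and 9 of the 14 longer genes had a positive fold change, with medians of 0.41 and 0.27. Between YSGr and YSGnr the longer genes were the higher ones, with 12 of 14 positive (median 0.34) against 7 of the 15 shorter (median -0.07).

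The called genes were spread over the order of length. Mvd has a longest transcript of 1833 bp, and Soat1 and Abca1 have 8371 and 10262 bp. Dhcr7, Tm7sf2, Fdft1 and Sqle lie between them, at 2815, 3083, 3698 and 4467 bp. With the trend on length and GC content removed from each library, Soat1 had fold changes of -0.76 in YSGr and -0.79 in YSGnr and was called in both, and Abca1 had -0.57 and -0.62 and was called in both. Mvd stayed called in YSGr at 0.86 log2 units, and in YSGnr it was at 0.56 and not called (adjusted p = 0.0784). Fdft1 stayed called in both at 0.42 and 0.74. In all, 11 of the 29 genes were called in YSGr against SG on that scale, 9 of them higher, against 13% of all tested genes, with Cyp51 (0.48), Msmo1 (0.41), Nsdhl (0.34), Ebp (0.45) and Sc5d (0.76) added. Between YSGr and YSGnr, Srebf1 was then called at -1.66 log2 units (adjusted p = 0.047), beside Pmvk (0.98), Idi1 (0.50) and Dhcr7 (0.61). These are 4 of the 29 genes, against 10.2% of all tested genes.

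**Figure D4:**
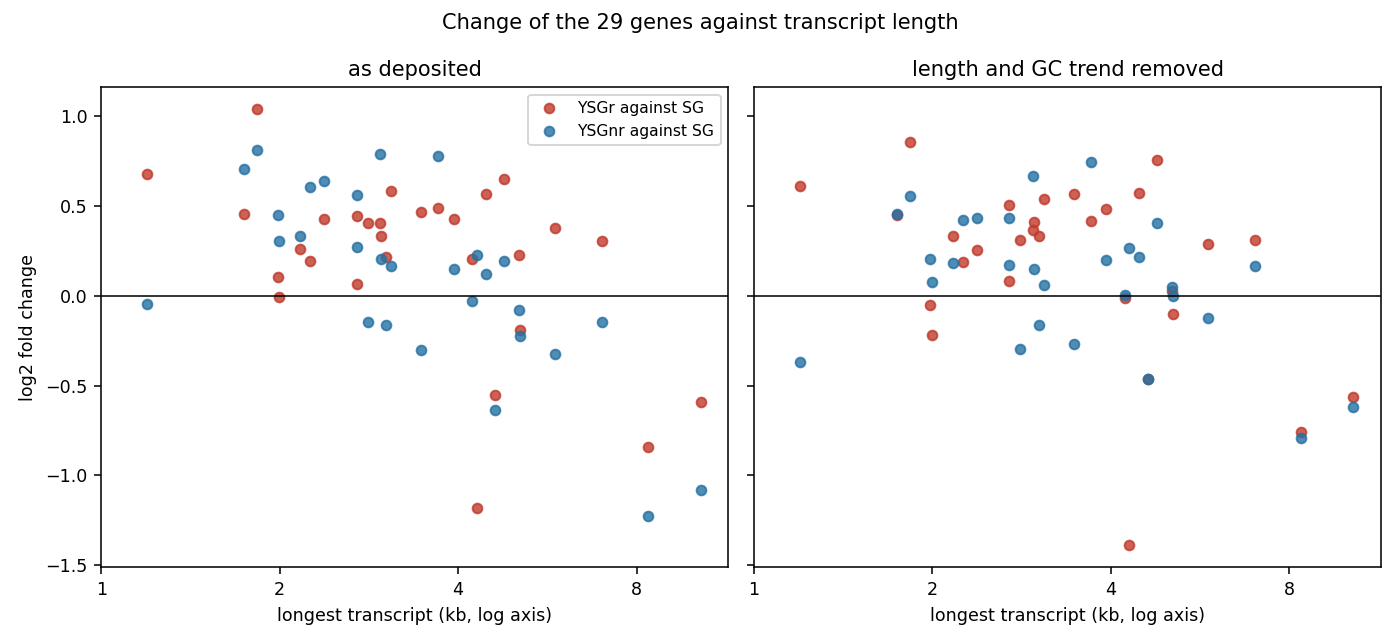
Each point is 1 of the 29 genes, with its longest transcript in kb on a log x axis and its limma log2 fold change against SG on the y axis, red for YSGr and blue for YSGnr, as deposited (left) and with the length and GC trend removed from each library (right). The blue points fall from left to right in the left panel (rho -0.71) and less so in the right panel (rho -0.42), the red points have a rho of -0.33 on the left and -0.35 on the right, and the lowest blue points at the long end are Soat1 and Abca1.

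Neighbouring pathways were read from lists of related genes, with the shares of all tested genes called higher and lower as the background: 6.58% and 3.97% in YSGr against SG, 1.19% and 2.17% in YSGnr against SG, and 5.09% and 0.879% in YSGr against YSGnr. Of 7 other sterol synthesis genes tested, limma called none in YSGr or YSGnr against SG, with 0 and 2 at an unadjusted p below 0.05, and Por, the reductase that feeds electrons to Sqle and Cyp51, was higher in YSGr than in YSGnr by 0.51 log2 units (SE 0.12, adjusted p = 0.0431). None of 11 genes of the isoprenoid branch was called in any comparison by limma, with 0, 4 and 2 at an unadjusted p below 0.05. Of 9 genes of SREBP processing and degradation, 1 was called, the ubiquitin ligase gene Rnf139, which fell in YSGr against SG by 0.44 log2 units (SE 0.12, adjusted p = 0.0473).

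Fatty acid synthesis, the branch known for SREBP-1, had 3 of 15 genes higher in YSGr against SG and none lower, against 6.58% and 3.97% of all tested genes, with a list median of 0.12 log2 units. Thrsp, a lipogenic regulator, was at 1.98, 2.32 and 2.11 log2 CPM in SG, 4.19, 4.40 and 3.94 in YSGr and 2.30, 3.18 and 3.19 in YSGnr. It rose by 2.04 log2 units in YSGr (SE 0.26, limma adjusted p = 0.00347), in replicate 3 as in the other two libraries. Pnpla3, a lipid droplet enzyme, and Acss2, acetyl-CoA synthetase, rose by 1.15 and 0.69. Of the 15 fold changes in YSGr against SG, 11 were positive and 4 negative. The groups did not overlap for 5 genes with YSGr above and for 2, Acaca and Elovl5, with YSGr below. Over all tested genes these shares were 19.5% and 17.3%. No gene of this list was called lower in YSGr, while Srebf1 was at its lowest values in YSGr replicates 1 and 2. Fasn, the fatty acid synthase gene, was not called, with 9.46, 9.34 and 9.06 in YSGr and 9.03 to 9.21 in SG. Between YSGr and YSGnr, Thrsp (1.29), Scd1 (0.93), a desaturase gene, and Me1 (0.76), malic enzyme, were higher in YSGr, which is 3 of the 15 against 5.09% of all tested genes. In YSGnr against SG limma called none of the 15, with 4 at an unadjusted p below 0.05.

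**Figure D5:**
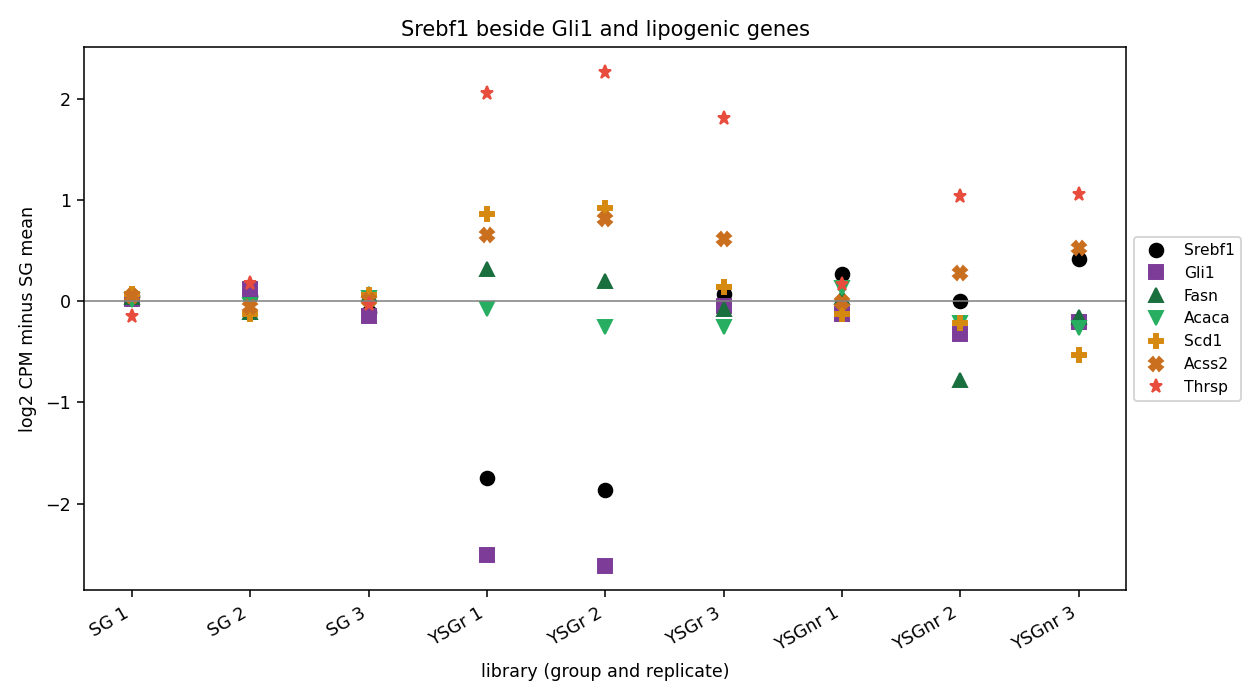
Points are log2 CPM minus the SG mean (y axis) for Srebf1, the Hedgehog target Gli1 and 5 lipogenic genes in each of the 9 libraries (x axis). In YSGr replicates 1 and 2 Srebf1 and Gli1 lie far below 0, while Thrsp, Scd1, Acss2 and Fasn lie above 0 and Acaca slightly below it. In YSGr replicate 3 Srebf1 and Gli1 lie near 0 while Thrsp is still high.

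Sterol transport and breakdown moved in single genes. In YSGr against SG, 4 of 16 genes of lipoprotein uptake and sterol transport were higher, against 6.58% of all tested genes: Lrpap1 (0.83 log2 units), a chaperone of lipoprotein receptors, Stard5 (0.72), Mylip (0.71), the ubiquitin ligase that degrades lipoprotein receptors, and Gramd1b (0.60), a sterol carrier. Lrp8, a receptor for reelin and lipoproteins, was higher in YSGr than in YSGnr by 1.49. Cyp46a1, the neuronal hydroxylase that clears brain cholesterol, was at 2.97, 2.86 and 3.21 log2 CPM in SG, 4.87, 4.93 and 3.94 in YSGr and 3.60, 2.72 and 2.62 in YSGnr. It rose by 1.57 against SG (SE 0.32, limma adjusted p = 0.0194) and was higher in YSGr than in YSGnr by 1.60. The exporter gene Abcg4 rose by 0.81 in YSGr against SG, and it and Abca3, a lipid transporter gene, were higher in YSGr than in YSGnr by 1.13 and 0.65. In YSGnr, Cyp7b1, an oxysterol hydroxylase, rose by 0.70 and Rxrg, a partner receptor of LXR, fell by 1.50. Thrsp in YSGr against SG kept its call whichever library was left out, while Rxrg was called in 5 of the 9 such fits and every other called gene of these lists in 2 or 4 of them.

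Many calls of these lists lay close to the threshold. With the length and GC trend removed, Rnf139 (-0.31 log2 units, adjusted p = 0.218), Pnpla3 (adjusted p = 0.053), Stard5 (adjusted p = 0.058) and Abcg4 (adjusted p = 0.0662) were not called in YSGr against SG, nor Cyp7b1 in YSGnr against SG (adjusted p = 0.0772), nor Abca3 between YSGr and YSGnr (0.27 log2 units, adjusted p = 0.0897). On the 6 libraries alone, none of Por, Thrsp, Scd1, Me1, Lrp8, Cyp46a1, Abcg4 and Abca3 was called between YSGr and YSGnr by limma, with adjusted p of 0.158 to 0.177. With no filter, median scaling, quantile normalization or the replicate block, Rnf139, Mylip, Gramd1b, Stard5 and Abcg4 in YSGr against SG, Cyp7b1 in YSGnr and Por, Scd1, Me1, Lrp8, Cyp46a1 and Abca3 between YSGr and YSGnr each lost the call under at least 1 of these settings, with adjusted p of 0.0505 to 0.0874.

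Markers of other cell types moved with these comparisons. In YSGr against SG, where 6.58% of all tested genes were called higher and 3.97% lower, 10 of 12 myelin genes were called higher, with a median of 2.08 log2 units. Their summed level was 11.35, 11.99 and 11.41 log2 CPM in YSGr, 9.32 to 10.26 in SG and 9.77 to 10.93 in YSGnr. Of 10 mature granule neuron genes 8 were higher, with summed levels of 9.98 to 10.78 in YSGr, 8.65 to 8.95 in SG and 8.81 to 9.60 in YSGnr. For dividing cells 6 of 12 genes were lower, with summed levels of 10.20 to 11.06 in YSGr, 11.44 to 11.45 in SG and 11.33 to 11.38 in YSGnr. The Hedgehog and progenitor list was lower in 3 of 12 genes, and its median difference from SG was -1.66 and -1.96 log2 units in YSGr replicates 1 and 2, the libraries with low Srebf1, and -0.05 in replicate 3. Purkinje cell genes were higher in 4 of 8, and of 11 astrocyte genes 3 were higher and 1 lower. Of 6 oligodendrocyte progenitor genes 3 were lower, of 5 erythrocyte genes 3 were lower and of 8 mural cell and fibroblast genes 1 was higher. Limma called none of the 10 microglia or 8 endothelial genes, with 1 and 0 at an unadjusted p below 0.05.

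In YSGnr against SG, where 1.19% of all tested genes were called higher and 2.17% lower, 5 of 10 mature granule neuron genes, 2 of 12 myelin genes and 2 of 8 Purkinje cell genes were higher. Endothelial genes were lower in 3 of 8, with summed levels of 7.10 to 7.54 log2 CPM in YSGnr and 7.83 to 7.97 in SG. Mural cell and fibroblast genes were lower in 1 of 8 and dividing cell genes in 1 of 12, and of 11 astrocyte genes 1 was higher and 1 lower. Limma called none of the Hedgehog and progenitor, oligodendrocyte progenitor, microglia or erythrocyte genes, with 0, 2, 1 and 0 at an unadjusted p below 0.05.

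Between YSGr and YSGnr, where 5.09% of all tested genes were called higher and 0.879% lower, 8 of 10 mature granule neuron genes and 7 of 8 Purkinje cell genes were higher in YSGr. The summed Purkinje level was 10.44 to 11.20 log2 CPM in YSGr and 9.12 to 9.97 in YSGnr. Endothelial and mural cell genes were higher in 3 of 8 each, astrocyte genes in 2 of 11 and myelin genes in 1 of 12. Of the oligodendrocyte progenitor genes 1 was higher and 1 lower, and 1 of 5 erythrocyte genes was lower. Limma called none of the Hedgehog and progenitor, dividing cell or microglia genes, with 6, 9 and 2 at an unadjusted p below 0.05. No gene of these cell type lists was at the floor of -3.52, and the lowest were the myelin genes Opalin, at -2.81 log2 CPM in SG replicate 1, and Ermn, at -0.31 in YSGnr replicate 3. Their part in the differences of Mvd, Fdft1, Sqle, Tm7sf2, Dhcr7, Soat1, Abca1 and Srebf1 was not tested.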

How the data were processed

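Gene expression was measured by bulk RNA sequencing in 9 libraries. Per the labels' protocols, RNA was isolated from tumour tissue with a Trizol-type method and sequenced by BGI on the DNBseq platform. Per the submitters' processing notes, the tools were edgeR, RSEM, Bowtie2, Trimmomatic and Picard, on build mm10, with no version given. No source used here gives the strandedness or annotation. As deposited, the values are log2 CPM in 1 table, already scaled to library size and with an added count, which the lowest value implies to be near 2.00 reads. Fold changes of low genes are therefore understated. Back-calculated values were whole reads (within 0.02) for 36.3% to 68.8% of values, so no count test was run.

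The 15251 genes above 0 log2 CPM in 3 or more libraries were fitted with limma 3.58.1 in R 4.3.3 (group means, a trend of variance on mean, two-sided moderated test), adjusted by Benjamini-Hochberg. The members and lists were chosen with earlier results of these data known. The naming rule gave called members and the sensor and regulator genes in every library, the others by range and counts, and up to 4 called genes of each other list. Hmgcs1, Pmvk, Lss, Sc5d, Idi1, Hsd17b7, Abcg1 and Fasn have library values here by a choice made on seeing them.

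Tested on simulated data of 15251 genes, 200 of them changed, the fit for YSGr against SG found 37% of the changes of 1 log2 unit and 81% of the changes of 2 units. For YSGnr against SG it was 36% and 79%, and for YSGr against YSGnr 33% and 78%. The simulated noise was normal and independent, with the same spread for a gene in all libraries. In the data the spread differed between groups, as for Srebf1, with an SD of 1.09 in YSGr and 0.09 in SG. These rates therefore need not hold for the data. Alternatives were no filter, a filter above 1, a pseudocount of 1 CPM, median scaling, quantile normalization, the 6 libraries compared, array weights, a replicate block, removal of a length and GC trend (splines of 4 degrees of freedom), and left-out libraries. GENCODE M21 on GRCm38 gave lengths and coordinates, and there 95.6% of symbols matched 1 gene. No libraries were merged, since every replicate pair differed beyond sampling noise.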

Additional observations from a re-analysis of the deposited data

How the results depend on the processing

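In YSGr against SG, 6 of the 29 members and 1608 of the 15251 tested genes were called. These counts became 25 and 9661 with array weights, 2 and 1194 with the replicate block, and 11 and 1984 with the length and GC trend removed. They became 21 and 7556 with YSGr replicate 3 and YSGnr replicate 1 left out. Members called ranged from 1 to 14 with 1 library left out, and all genes called from 328 to 4257. For YSGnr against SG, 4 became 15 with array weights and 15 without that pair of libraries, with 0 to 10 when 1 was left out. For YSGr against YSGnr, 1 became 25 with array weights, 4 with the trend removed, 23 without the pair and 0 on the 6 libraries alone (7 at an unadjusted p below 0.05 in limma), with 0 to 16 when 1 was left out. Where leaving out 1 library gave 0 members, 6 to 10 had an unadjusted p below 0.05. The counts over all tested genes follow for these comparisons too. They also rose with array weights and without the pair, so the rise was not particular to the members.

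All genes called in YSGr against SG went from 1608 to 9661 with array weights and 7556 without the pair, with 328 to 4257 when 1 library was left out. In YSGnr against SG, 512 became 1190 on 6 libraries, 7316 with array weights, 341 with the replicate block and 8074 without the pair, with 19 to 3332 when 1 was left out. For YSGr against YSGnr, 910 became 316 with median scaling, 0 on 6 libraries (3368 at an unadjusted p below 0.05), 9967 with array weights, 1556 with the trend removed and 9867 without the pair, with 1 to 6528 when 1 was left out. The weights were lowest for YSGr replicate 3 (0.104) and YSGnr replicate 1 (0.117), so array weights and leaving out the pair act on the same libraries. The causes of these moves were not tested.

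Of 627 refits of called genes named here, 381 kept the call, 246 lost it and 0 reversed. Scaling moved the median of all genes by under 0.1 log2 units. The replicate numbers did not pair the libraries: deviations of same-numbered libraries correlated at -0.03, -0.11 and -0.23 in YSGr against SG, 0.24, 0.11 and 0.05 in YSGnr against SG, and 0.23, -0.15 and 0.21 in YSGr against YSGnr. The block is therefore given only as an alternative fit. Depth limits low genes such as Nr1h3 most in YSGnr replicate 1, with 3.53 M reads outside Yam1 and Lars2.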
